A study of Homo sapiens with 6 samples.

Results

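The genes described here are 8 enzymes and regulators of lipid synthesis, chosen by name from the 51103 genes counted in each library. HMGCS1, SQLE, INSIG1 and FDFT1 stand for the sterol branch and are classical targets of the transcription factor SREBP2. FASN, SCD, ACACA and SREBF1 stand for fatty acid synthesis and are classical targets of SREBP1, which SREBF1 itself encodes. The membership was set by name and not by any measured value, although earlier results of these data were known when the list was drawn up. All 8 genes passed the filter on low counts that left 17617 genes for testing.

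Polyadenylated RNA was sequenced from HGC-27 and AGS, a pair of established human gastric cancer lines. Each line was transduced to overexpress NINJ1 by lentivirus, or served as a negative control whose make-up the labels do not state, and was lysed 48 hours later. NINJ1 (ninjurin-1), a protein of the cell surface, breaks open the membrane of dying cells. Per line there were 2 libraries labelled NINJ1 and 1 control, 6 in all, and nothing says that the NINJ1 replicates were separate cultures or whether the transduced cells were clones or pools. The p-values therefore measure only the spread between these libraries. With 1 control per line, that spread comes from the NINJ1 pairs, and each control is assumed to vary like them.

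Total counts ran from 12619684 to 18175697 per library. Titles and file names put the 2 libraries called NINJ1 replicate 2 in opposite lines, and the lines are used here as in the file names. Genes seen in only one line among the 4 undisputed libraries bear on this: the library filed under HGC-27 held 15 of 15 HGC-27 genes and 0 of 13 AGS genes, and the library filed under AGS held 0 of 15 and 13 of 13. The NINJ1 transcript went against 1 label, since it was at 28.4 CPM (the count relative to the TMM-scaled library total) in the AGS control but at 19.5 and 15.9 CPM in the AGS libraries labelled NINJ1 (edgeR log2 difference -0.68, SE 0.19, adjusted p = 0.0148). In HGC-27 it was at 4.89 CPM in the control and at 17.3 and 19.1 CPM in the NINJ1 libraries (1.89, SE 0.24, adjusted p = 3.22e-08). That difference rests on a control unlike the other libraries, as given below, and has no correction for GC content. Between the NINJ1 libraries of AGS and HGC-27 the transcript did not differ (-0.04, SE 0.17, edgeR adjusted p = 0.877). The labels do not state which part of the NINJ1 transcript the vector carries, and how far its reads enter these counts was not tested. The HGC-27 control also stood apart in base composition: genes with a GC content above 60% took 2.31% of its counts, against 9.25% to 11.3% in the other 5 libraries. Of 7 gastric epithelial markers, EPCAM, KRT8, KRT18, CLDN7 and ELF3 reached 1 FPKM in some library, while KRT19 stayed at or below 0.03 and CDH1 at or below 0.45 FPKM.

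Sterol and fatty acid synthesis share their precursor, acetyl-CoA, and a family of membrane-bound transcription factors, the SREBPs. When sterols in the endoplasmic reticulum are scarce, SCAP escorts SREBP to the Golgi, where proteases release the part that enters the nucleus; when sterols are abundant, INSIG proteins hold the complex back. SREBP2 drives mainly cholesterol synthesis and uptake, and SREBP1c, which also answers to insulin and to the oxysterol receptor LXR, drives mainly fatty acid synthesis. Tumours of many tissues, the stomach among them, make fatty acids de novo, and FASN and SCD have been studied there as drug targets.

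The promoters of 4 genes of the group and of SREBF2, the gene of SREBP2, are shown because members of both branches are compared below; they were searched for letters that SREBP and its partners are known to read. Each runs from 250 bases before the transcription start to the base before it, read 5′ to 3′ on the gene's own strand, from RefSeq on GRCh38.p14. Capitals mark matches on either strand to the sterol regulatory element TCACNCCAC, the E-box CACGTG and the NF-Y box CCAAT; no marked matches overlap.
HMGCS1 (the first of its starts in the table), chr5:43313413-43313662, minus strand: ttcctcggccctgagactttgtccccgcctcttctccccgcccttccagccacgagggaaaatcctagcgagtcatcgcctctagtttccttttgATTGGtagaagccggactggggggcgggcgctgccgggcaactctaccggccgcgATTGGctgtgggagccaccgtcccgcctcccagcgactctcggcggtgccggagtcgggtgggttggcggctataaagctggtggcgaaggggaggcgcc
INSIG1, chr7:155297628-155297877, plus strand: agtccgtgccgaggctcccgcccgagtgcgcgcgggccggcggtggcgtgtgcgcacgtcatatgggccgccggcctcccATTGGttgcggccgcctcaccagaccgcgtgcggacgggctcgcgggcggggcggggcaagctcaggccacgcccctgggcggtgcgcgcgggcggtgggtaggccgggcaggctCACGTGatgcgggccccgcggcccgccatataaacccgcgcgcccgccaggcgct
SCD, chr10:100346983-100347232, plus strand: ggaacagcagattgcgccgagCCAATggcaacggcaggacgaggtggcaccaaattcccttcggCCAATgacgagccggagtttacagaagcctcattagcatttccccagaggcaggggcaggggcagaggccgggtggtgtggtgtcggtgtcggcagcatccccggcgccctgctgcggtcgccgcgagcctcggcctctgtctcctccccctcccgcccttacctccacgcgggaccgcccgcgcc
SREBF1, chr17:17836987-17837236, minus strand: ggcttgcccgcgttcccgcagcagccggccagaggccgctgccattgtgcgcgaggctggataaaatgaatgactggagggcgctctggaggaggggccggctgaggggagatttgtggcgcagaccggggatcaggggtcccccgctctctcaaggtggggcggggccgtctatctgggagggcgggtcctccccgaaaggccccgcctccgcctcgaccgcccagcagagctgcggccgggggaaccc
SREBF2, chr22:41832855-41833104, plus strand: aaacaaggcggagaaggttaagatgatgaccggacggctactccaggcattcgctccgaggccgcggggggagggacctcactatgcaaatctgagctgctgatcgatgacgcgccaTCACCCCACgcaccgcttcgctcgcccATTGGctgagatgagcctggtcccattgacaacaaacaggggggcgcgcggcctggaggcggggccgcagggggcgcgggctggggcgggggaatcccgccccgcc

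The window of SREBF2 alone among these 5 held an exact match to the letters TCACNCCAC, 133 bases before the start. It also had an NF-Y box on the opposite strand 106 bases before the start. Looser forms of the sterol regulatory element were not searched. INSIG1 had an E-box at 55 bases and an opposite-strand NF-Y box at 170 bases before its start. HMGCS1 had NF-Y boxes on the opposite strand at 155 and 100 bases, and SCD on its own strand at 229 and 186 bases. The SREBF1 window, at the upstream end of the gene, held none of these 3 motifs, and no other start of SREBF1 was searched. The GC box GGGCGG, searched on both strands and left in lower case, was in all 5 windows, with 5 matches in INSIG1, 3 in SREBF1 and 2 each in HMGCS1, SCD and SREBF2. Among 35116 promoter windows of 250 bases in the same table, 0.883% held the sterol regulatory element, 6.34% the E-box, 32.0% the NF-Y box and 42.6% the GC box. Windows were taken for 5 of the 8 genes, the fifth being ACACA, and these matches are descriptions of letters, not of binding.

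In AGS, members of both branches were lower than in the control. SQLE, INSIG1, FASN and SCD were lower in both libraries labelled NINJ1 and passed the test, and HMGCS1, FDFT1, ACACA and SREBF1 did not. The largest difference, that of FASN, was 1.56-fold. Levels are given below in FPKM, which corrects a count for the length of the gene and the size of the library and alone allows genes to be compared with each other. Differences are log2 ratios of counts scaled by edgeR's TMM method, with a standard error (SE) and an edgeR quasi-likelihood p adjusted by Benjamini-Hochberg over all 17617 genes. In bulk RNA, fewer cells that express a gene and less RNA per cell cannot be told apart.

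**Figure D1:**
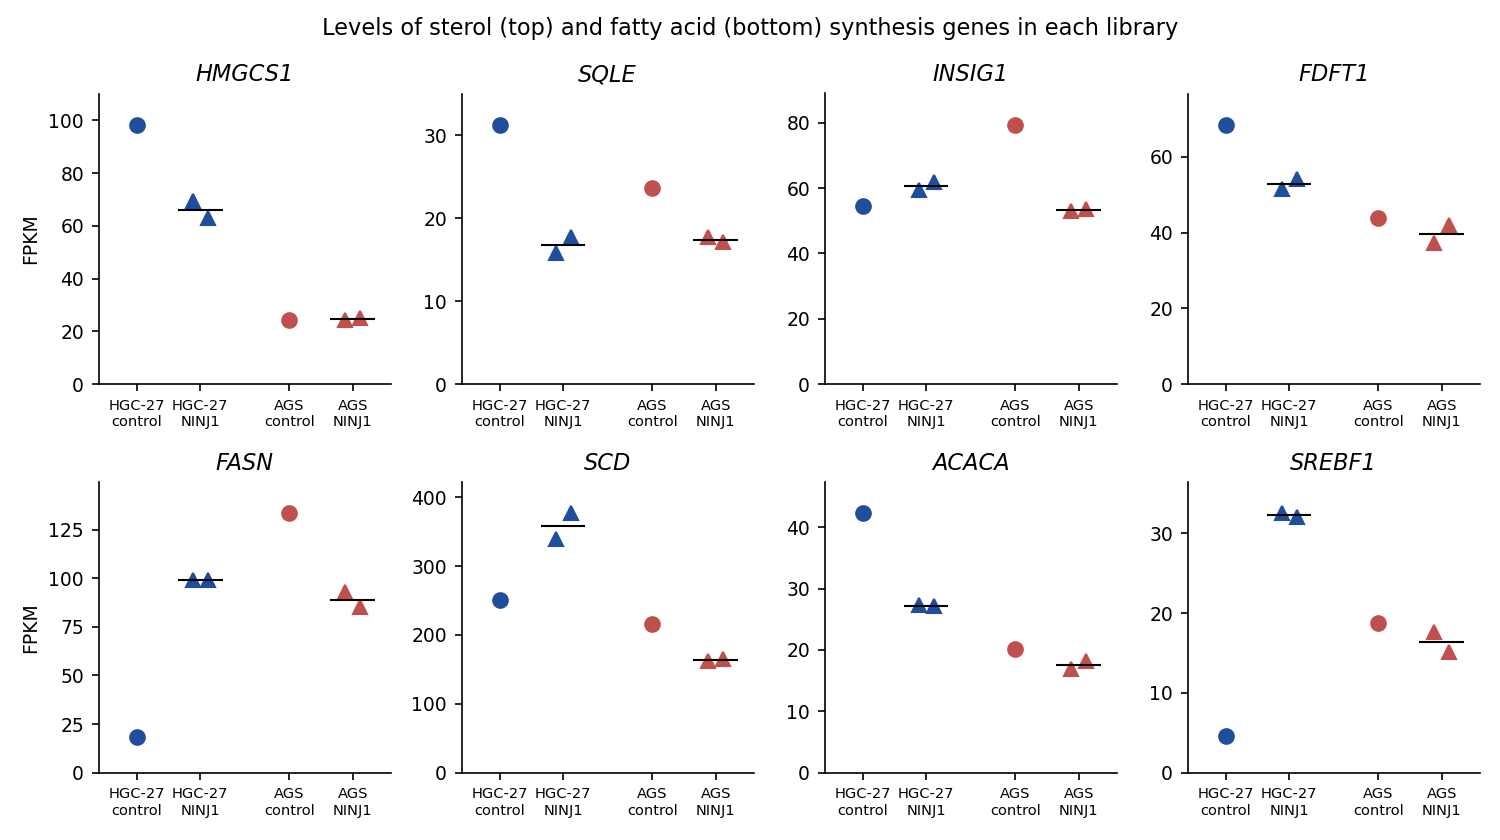
FPKM (vertical axis, each panel with its own scale from 0) of the 4 sterol genes (top) and the 4 fatty acid synthesis genes (bottom) in each of the 6 libraries; circles are the single controls, triangles the libraries labelled NINJ1, and bars their mean (n = 2). SCD stood highest of the 8 in every library, and the HGC-27 control (first circle) stood lowest for FASN and SREBF1 at 18.3 and 4.67 FPKM.

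The sterol branch begins with HMGCS1 (ENSG00000112972, chromosome 5, 43289395 to 43313512, minus strand), the cytosolic HMG-CoA synthase at the head of the mevalonate route. It was at 24.5 FPKM in the AGS control and at 24.5 and 25.0 in the AGS libraries labelled NINJ1. The control was lowest of the 3 by a small margin in FPKM and highest in TMM-scaled CPM (113 against 109 and 112), with a log2 difference of -0.04 (SE 0.13, adjusted p = 0.884).

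FDFT1 (ENSG00000079459, chromosome 8, 11795573 to 11839309, plus strand) is squalene synthase, which commits farnesyl units to sterols. Its AGS levels were 44.0 FPKM in the control and 37.2 and 42.1 in the libraries labelled NINJ1. Both lay below the control, but the gap between them was wider than the gap from the nearer one to it (log2 difference -0.20, SE 0.13, adjusted p = 0.313).

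SQLE (ENSG00000104549, chromosome 8, 124998497 to 125022283, plus strand), squalene epoxidase, catalyses a rate-limiting oxygen-dependent step after squalene. It was at 23.6 FPKM in the AGS control and at 17.7 and 17.1 in the libraries labelled NINJ1. That pair lay close together and 1.41-fold below the control (log2 difference -0.49, SE 0.14, adjusted p = 0.0120).

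INSIG1 (ENSG00000186480, chromosome 7, 155297776 to 155310235, plus strand), whose promoter is printed above, makes no sterol but retains SCAP and SREBP in the endoplasmic reticulum. Its levels were 79.4 FPKM in the AGS control against 52.9 and 53.7 in the libraries labelled NINJ1. The pair differed by under 1 FPKM and lay 1.55-fold below the control (log2 difference -0.63, SE 0.12, adjusted p = 0.000467).

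In the fatty acid branch, ACACA (ENSG00000278540, chromosome 17, 37084988 to 37406818, minus strand) is acetyl-CoA carboxylase 1, which makes malonyl-CoA. It was at 20.2 FPKM in the AGS control and at 16.8 and 18.1 in the libraries labelled NINJ1. Both were lower than the control, by a log2 difference of -0.26 that did not pass (SE 0.13, adjusted p = 0.169).

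FASN (ENSG00000169710, chromosome 17, 82078333 to 82098332, minus strand), the fatty acid synthase that builds palmitate, was at 133 FPKM in the AGS control and at 92.7 and 85.3 in the libraries labelled NINJ1. Both lay well below the control, and the log2 difference was -0.64 (SE 0.12, adjusted p = 0.000284). FASN has a GC content of 65.3%, and with a correction for GC content the difference was -0.28 and missed the threshold (edgeR adjusted p = 0.0576).

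SCD (ENSG00000099194, chromosome 10, 100347124 to 100364834, plus strand) is the stearoyl-CoA desaturase that makes monounsaturated fatty acids. The AGS control held 215 FPKM and the libraries labelled NINJ1 held 162 and 166. The pair lay close together and 1.37-fold below the control (log2 difference -0.45, SE 0.12, adjusted p = 0.0109). Reads of its pseudogene SCDP1 numbered 2 over all 6 libraries.

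SREBF1 (ENSG00000072310, chromosome 17, 17810399 to 17837002, minus strand) was at 18.7 FPKM in the AGS control and at 17.6 and 15.1 in the libraries labelled NINJ1. The NINJ1 pair differed by more than its nearer member differed from the control (log2 difference -0.25, SE 0.13, adjusted p = 0.212). RAI1, with 5703 counts over the 6 libraries, overlaps SREBF1 on the opposite strand, and the strand setting of the counting is not given in the sources used here. The other genes overlapping a member held at most 152 counts in all.

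Over the 8 genes in AGS, 4 were called lower and 0 higher; of all genes tested, 9.3% were called lower and 5.73% higher. The 4 calls were split evenly, 2 sterol genes and 2 fatty acid genes, and the median log2 difference was -0.35 in both branches, against 0.00 over all genes tested. After GC correction 4 were again called lower, with ACACA (-0.29, edgeR adjusted p = 0.0389) in place of FASN. Among all 17617 genes tested, 1808 were then called lower and 1445 higher. Without AGS NINJ1 replicate 1 the calls of SQLE and SCD ended (adjusted p = 0.121 and 0.183), and without replicate 2 those of SQLE, FASN and SCD did (0.183, 0.0516 and 0.145). INSIG1 kept its call when any 1 library other than the AGS control was left out, whereas none of the 8 passed with lines as titled or on the 4 undisputed libraries. Neither of these 2 settings can decide the AGS calls. With lines as titled, each NINJ1 pair joins 1 library of either file name. The fit of the 4 libraries has 1 treatment term for both lines, so a difference between their responses counts as spread.

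**Figure D2:**
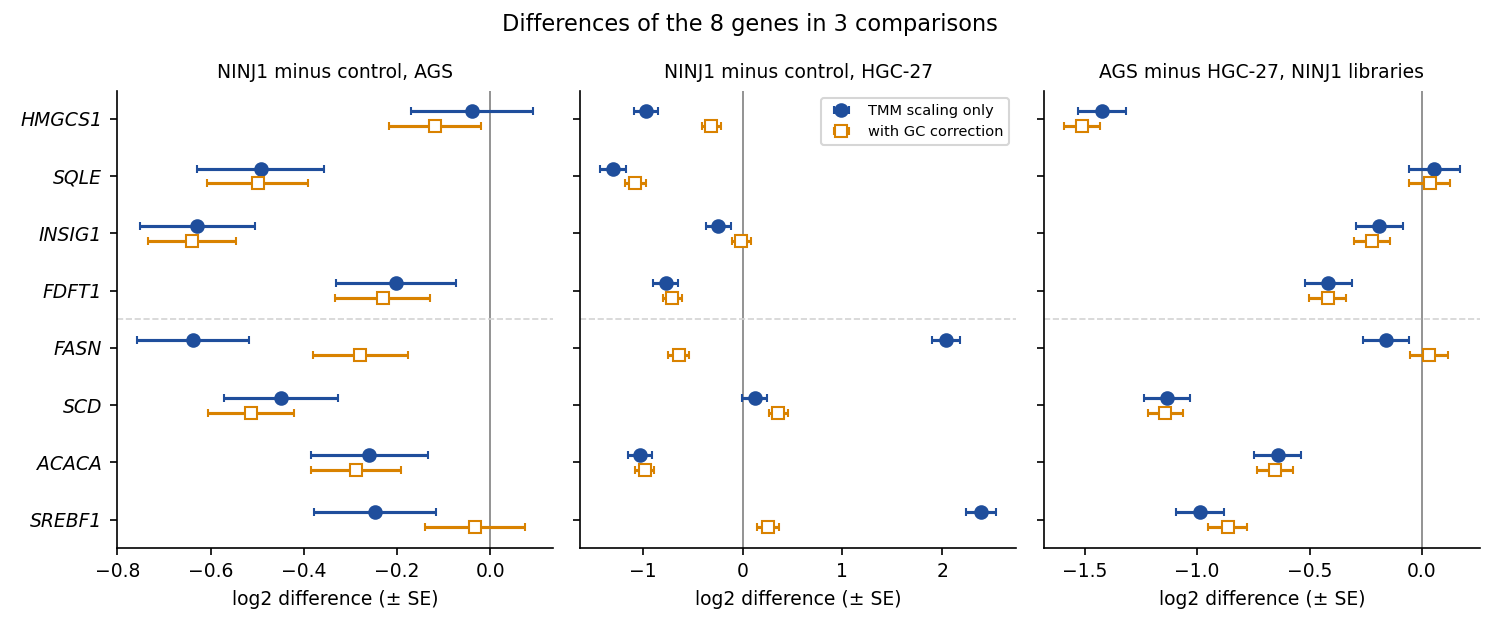
Log2 difference (horizontal axis, each panel with its own scale) of each of the 8 genes, with bars of 1 SE, in AGS libraries labelled NINJ1 against the AGS control (left), in HGC-27 NINJ1 against control (middle) and in AGS against HGC-27 NINJ1 libraries (right); filled circles use TMM scaling alone and open squares add the GC correction. In the middle panel FASN moved from 2.04 to -0.64 and SREBF1 from 2.39 to 0.25 with the correction. In the right panel the widest move was that of FASN, from -0.16 to 0.03.

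In HGC-27 the same genes spread in both directions. SQLE, ACACA, HMGCS1 and FDFT1 were lower in both NINJ1 libraries than in the control, by 1.71-fold to 2.46-fold, and kept that direction and their calls after GC correction. FASN and SREBF1 were 4.11-fold and 5.26-fold higher, but with GC correction FASN turned lower and SREBF1 lost its call. INSIG1 and SCD did not pass. This comparison rests on the HGC-27 control, the library that stood apart in base composition. GC content and treatment therefore cannot be told apart for the GC-rich members. Genes of low GC content were shifted the other way, as given below, so the lower calls share this limit.

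HMGCS1 was at 98.4 FPKM in the HGC-27 control and at 69.4 and 62.9 in the NINJ1 libraries. Its log2 difference was -0.97 (SE 0.12, adjusted p = 2.2e-08), and -0.31 after GC correction (adjusted p = 0.00666); at 40.2% it has the lowest GC content of the 8. SQLE fell from 31.3 FPKM in the control to 15.8 and 17.7, a log2 difference of -1.30 (SE 0.13, adjusted p = 2.33e-10) that remained at -1.08 with GC correction. It was the member with the most negative difference in HGC-27.

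FDFT1 was at 68.5 FPKM in the HGC-27 control and at 51.5 and 54.0 in the NINJ1 libraries (log2 difference -0.77, SE 0.12, adjusted p = 2.28e-06). ACACA was at 42.3 FPKM in the control and at 27.4 and 27.1 in the NINJ1 libraries (log2 difference -1.03, SE 0.12, adjusted p = 5.47e-09). The GC correction left these at -0.70 and -0.98, both still called lower.

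FASN was at 18.3 FPKM in the HGC-27 control and at 99.2 and 99.0 in the NINJ1 libraries, a log2 difference of 2.04 (SE 0.14, adjusted p = 1.96e-14) that reversed to -0.64 with GC correction (adjusted p = 1.29e-05). SREBF1 was at 4.67 FPKM in the control and at 32.5 and 32.1 in the NINJ1 libraries, a log2 difference of 2.39 (SE 0.15, adjusted p = 3.5e-15) that shrank to 0.25 (adjusted p = 0.0697). These are the GC-richest of the 8 genes, at 65.3% and 62.8%, and the remaining 6 lie between 40.2% and 48.7%. Among all tested genes of 60% to 65% GC, 82.0% were called higher in HGC-27 NINJ1, with a median log2 difference of 2.35. Above 65% these were 89.1% and 3.61. At 40% to 45% GC, the class of HMGCS1, 50.4% were called lower and 7.78% higher, with a median of -0.57. At 45% to 50%, the class of SQLE, INSIG1, FDFT1, SCD and ACACA, 30.9% were called lower and 18.6% higher, with a median of -0.15.

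SCD was at 251 FPKM in the HGC-27 control and at 340 and 377 in the NINJ1 libraries, yet its TMM-scaled log2 difference was 0.12 (SE 0.12, adjusted p = 0.417) and 0.36 with GC correction (adjusted p = 0.00318). INSIG1 was at 54.6 FPKM in the control and at 59.3 and 61.9 in the NINJ1 libraries, and its log2 difference was -0.24 (SE 0.12, adjusted p = 0.0883). FPKM, scaled by total count, thus placed all NINJ1 libraries above the control for INSIG1 while TMM scaling placed them below it (0.15 on the log2(FPKM + 1) scale). The median of all genes was 0.32 on the log2(FPKM + 1) scale and 0.12 in edgeR.

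In HGC-27, 2 of the 8 genes were called higher and 4 lower; of all genes tested, 34% were called higher and 29.1% lower. With lines as titled SQLE and FASN alone kept their calls, while HMGCS1 (adjusted p = 0.259), FDFT1 (0.117), ACACA (0.106) and SREBF1 (0.119) lost theirs, and on the 4 undisputed libraries none of the 8 passed. The limits given for these 2 settings in AGS apply here too. With GC correction 1 was higher (SCD) and 5 lower. The shares of all genes are without the correction, so these corrected counts have no share beside them. Both calls higher were in the fatty acid branch, whose median log2 difference was 1.08 before and -0.19 after the correction, while the sterol branch had -0.87 and -0.51. All genes tested had a median of 0.12. Across the 8 genes Pearson's r between GC content and the HGC-27 log2 difference was 0.906, against 0.585 across all 17617 genes and -0.340 across the 8 in AGS; genes are not independent replicates.

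**Figure D3:**
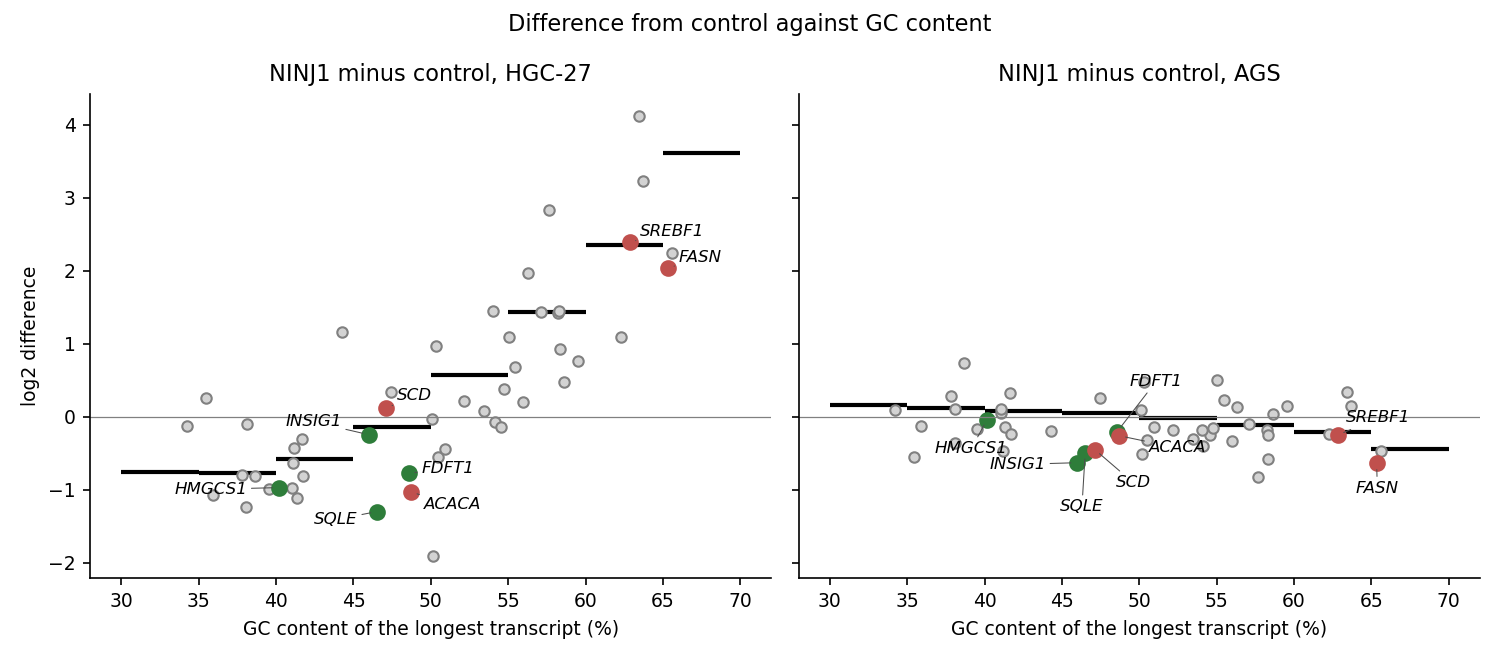
Log2 difference (vertical axis) against the GC content of the longest transcript (horizontal axis, %) in HGC-27 NINJ1 against control (left) and AGS libraries labelled NINJ1 against control (right). Green points are the sterol members, red points the fatty acid members, grey points the other genes of 3 lipid gene lists except CYP51A1, TM7SF2 and SCD5, and black bars the median of all tested genes in each GC class; in HGC-27, FASN and SREBF1 lie near or below the bars of their classes at 3.61 and 2.35.

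The lines were compared within the libraries labelled NINJ1, where both sides have 2 libraries and the HGC-27 control takes no part. HMGCS1, SCD, SREBF1, ACACA and FDFT1 were lower in AGS than in HGC-27, by 1.33-fold to 2.68-fold. SQLE, INSIG1 and FASN did not pass the test. No member was called higher in AGS.

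The widest gap was that of HMGCS1, at 69.4 and 62.9 FPKM in HGC-27 against 24.5 and 25.0 in AGS (log2 difference -1.42, SE 0.11, adjusted p = 5.63e-13). SCD was at 340 and 377 FPKM against 162 and 166 (-1.13, SE 0.10, adjusted p = 5.68e-11). SREBF1 was at 32.5 and 32.1 FPKM against 17.6 and 15.1 (-0.99, SE 0.11, adjusted p = 3.56e-09). In these 3 genes the ranges of the lines were far apart relative to the distance within either pair.

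ACACA followed at 27.4 and 27.1 FPKM in HGC-27 against 16.8 and 18.1 in AGS (log2 difference -0.64, SE 0.10, adjusted p = 5.41e-06). FDFT1 was at 51.5 and 54.0 FPKM against 37.2 and 42.1 (-0.42, SE 0.11, adjusted p = 0.00187), and this call ended without AGS NINJ1 replicate 1 (adjusted p = 0.177). SQLE overlapped between the lines, with 15.8 and 17.7 FPKM against 17.7 and 17.1 (0.05, SE 0.11, adjusted p = 0.740). INSIG1 (-0.19, SE 0.10, adjusted p = 0.150) and FASN (-0.16, SE 0.10, adjusted p = 0.217) were lower in both AGS libraries without passing.

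Of the 8 genes 5 were called lower in AGS and 0 higher; of all genes tested, 20% were called lower and 20.2% higher. The calls comprised 2 sterol and 3 fatty acid genes, and the branch medians were -0.30 and -0.81 against -0.01 over all genes tested. With GC correction these 5 calls held and INSIG1 passed too (-0.22, adjusted p = 0.0242). The share of all genes called between the lines with the correction is not given here. None passed with lines as titled, under which each line's NINJ1 pair joins 1 library of either file name, or on the 4 undisputed libraries. In the fit of those 4, a difference between the lines in NINJ1 against control counts as spread.

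In AGS libraries labelled NINJ1 the order of levels was SCD at 164 ± 2.79 FPKM, FASN at 89.0 ± 5.19, INSIG1 at 53.3 ± 0.53, FDFT1 at 39.6 ± 3.42 and HMGCS1 at 24.8 ± 0.36 (SD, n = 2). ACACA at 17.5 ± 0.92, SQLE at 17.4 ± 0.41 and SREBF1 at 16.4 ± 1.78 FPKM (SD, n = 2) came last and did not differ from each other beyond their spread. In HGC-27 NINJ1 the order was SCD at 358 ± 26.2, FASN at 99.1 ± 0.14, HMGCS1 at 66.2 ± 4.63, INSIG1 at 60.6 ± 1.84, FDFT1 at 52.7 ± 1.80, SREBF1 at 32.3 ± 0.31, ACACA at 27.2 ± 0.19 and SQLE at 16.7 ± 1.37 FPKM (SD, n = 2). HMGCS1 and INSIG1 were the neighbours there whose SD ranges overlapped. SCD ranked between 37 and 111 of all genes by FPKM in the 6 libraries, and SREBF1 between 1286 and 6103.

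Sterol and fatty acid genes were then set against each other in each library, as the mean log2 CPM of the 4 sterol genes minus that of the 4 fatty acid genes. Gene length enters this value, so it can be compared between libraries and not with 0. It was -0.03 in the HGC-27 control, -1.73 and -1.72 in HGC-27 NINJ1, -1.55 in the AGS control, then -1.54 and -1.44 in the AGS libraries labelled NINJ1. The HGC-27 control thus stood alone, and the other 5 libraries lay within a narrow band.

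With GC correction the values were -1.18 in the HGC-27 control, -1.53 and -1.36 in HGC-27 NINJ1, -1.23 in the AGS control, then -1.33 and -1.31 in the AGS libraries labelled NINJ1. The library that stood alone then lay at the upper edge of the others. In AGS the balance between the branches differed by 0.06 from the control, or by -0.09 with GC correction, so the sign depends on the scaling. In HGC-27 the difference was -1.70, or -0.27 with GC correction, and no test was made of these scores.

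The response to NINJ1 labelling was compared between the lines by the interaction contrast, the AGS difference minus the HGC-27 difference. It passed for 7 of the 8 genes, and for 54.2% of all genes tested, in either direction. FASN (-2.68, SE 0.18, edgeR adjusted p = 4.28e-14) and SREBF1 (-2.64, SE 0.19, adjusted p = 2.9e-13) had the widest gaps, but FASN turned to 0.36 and SREBF1 shrank to -0.29 with GC correction and neither then passed. HMGCS1 (0.93) also lost its call with the correction (0.20, adjusted p = 0.278).

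SQLE (0.81, SE 0.19, adjusted p = 0.000698), ACACA (0.77, SE 0.18, adjusted p = 0.000438) and FDFT1 (0.57, SE 0.18, adjusted p = 0.00872) were less low in AGS than in HGC-27, and SCD (-0.57, SE 0.18, adjusted p = 0.00684) went the opposite way; all 4 kept their calls with GC correction. INSIG1 missed the threshold (-0.38, SE 0.18, adjusted p = 0.0683) and passed with the correction (-0.63, adjusted p = 0.000785). Each of these values contains both single controls.

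The wider pathway was read from lists of lipid genes that include the members. Of 21 cholesterol synthesis enzymes tested in AGS, 1 was higher and 4 lower, with a median log2 difference of -0.23; over all genes tested 5.73% were higher and 9.3% lower and the median was 0.00, and the AGS counts of the other lists are to be read against the same shares. LSS (lanosterol synthase, -0.58, edgeR adjusted p = 0.00428) and ACAT2 (which condenses acetyl-CoA at the start of the route, -0.51, adjusted p = 0.0253) were among those that fell beside SQLE. SC5D, a late desaturase, rose (0.74, adjusted p = 0.00134), from 29.2 CPM in the AGS control to 47.2 and 50.7 CPM.

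Of 19 fatty acid synthesis genes tested in AGS, 0 were higher and 4 lower, with a median log2 difference of -0.17. They were FASN, SCD, SLC25A1 and SCD5. SLC25A1, which carries citrate out of mitochondria, lay at -0.47 (adjusted p = 0.0277), and at -0.09 with GC correction (adjusted p = 0.632). SCD5, a second desaturase, rested on 5 counts in the AGS control against 0 and 0. ELOVL5 (0.32, adjusted p = 0.0893) and ELOVL6 (-0.47, adjusted p = 0.116), which lengthen fatty acids, did not pass.

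Of 13 genes of SREBP control and sterol uptake tested in AGS, 2 were higher and 3 lower, with a median log2 difference of -0.14. INSIG2, the paralogue of INSIG1, fell beside it (log2 difference -0.56, adjusted p = 0.00602). NPC1, the lysosomal cholesterol exporter, rose (0.48, adjusted p = 0.0110). SREBF2, named for its promoter, was at 285 CPM in the AGS control and at 270 and 263 CPM in the libraries labelled NINJ1 (-0.10, adjusted p = 0.660).

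**Figure D4:**
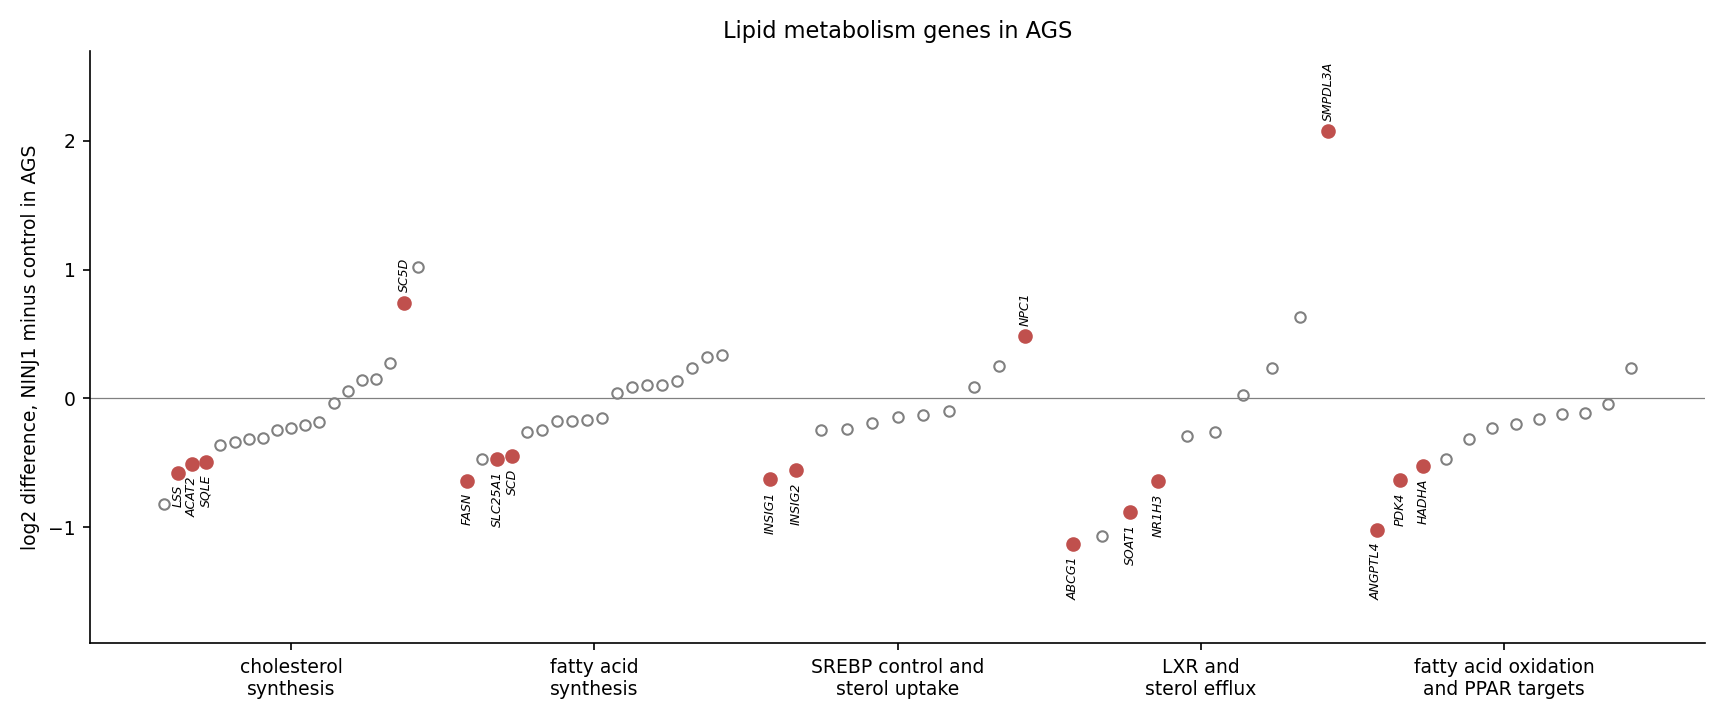
Log2 difference of AGS libraries labelled NINJ1 from the AGS control (vertical axis) for each gene of 5 lipid lists, ordered by value within each list; filled, labelled points passed the edgeR test and open points did not, and SCD5 is left out because 2 of its 3 AGS counts are 0, as are list genes that are not reported here. Calls lie on both sides of 0 in 3 lists (SC5D, NPC1 and SMPDL3A above it) and below it alone in the fatty acid synthesis and the oxidation lists.

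Among 10 tested genes of the LXR and sterol efflux list, 1 was higher and 3 lower in AGS. SOAT1, which esterifies cholesterol for storage, fell from 316 CPM to 179 and 166 CPM (log2 difference -0.88, adjusted p = 4.51e-06). ABCG1, a cholesterol exporter, was at 18.7, 8.96 and 8.13 CPM (-1.13, adjusted p = 0.000616), and NR1H3, which encodes LXR alpha, was at -0.64 (adjusted p = 0.00748). SMPDL3A was higher at a level below 3 CPM (2.08, adjusted p = 0.00990). CH25H had at most 1 count in a library and was not tested.

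Of 13 tested genes of fatty acid oxidation and PPAR targets, 0 were higher and 3 lower in AGS. ANGPTL4, a secreted inhibitor of lipoprotein lipase, was at 31.9 CPM in the control and at 15.9 and 15.5 CPM in the libraries labelled NINJ1 (-1.02, adjusted p = 4.5e-05). PDK4, which restrains pyruvate entry into mitochondria, lay at -0.63 (adjusted p = 0.000639) and HADHA, a subunit of the trifunctional protein of beta-oxidation, at -0.53 (adjusted p = 0.00276). ACADVL, a dehydrogenase of long acyl chains, did not pass (-0.32, adjusted p = 0.0838).

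In HGC-27, where 34% of all genes tested were called higher and 29.1% lower, the same lists had 7 higher and 10 lower of 21 cholesterol synthesis enzymes (4 and 11 with GC correction), 7 and 5 of 19 fatty acid synthesis genes (5 and 11), and 8 and 2 of 13 genes of SREBP control and uptake (6 and 3). SREBF2 was at 99.6 CPM in the HGC-27 control and at 257 and 281 CPM in the NINJ1 libraries (log2 difference 1.43, adjusted p = 6.25e-11), or 0.12 with GC correction (adjusted p = 0.329). NPC1 stayed higher with the correction, at 0.70 (adjusted p = 3.03e-06). The LXR list had 2 higher and 1 lower of 10 (4 and 2 with GC correction). The oxidation list had 3 higher and 8 lower of 13 (2 and 6 with GC correction). The shares of all genes are without GC correction, so the corrected counts of these lists have no share beside them.

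Between the lines, 2 cholesterol synthesis enzymes were higher and 9 lower in AGS NINJ1 than in HGC-27 NINJ1 libraries, with a median log2 difference of -0.27, against 20.2% higher and 20% lower over all genes tested, which also apply to the counts of the lists that follow. LBR, a sterol reductase that also anchors chromatin to the nuclear envelope, was higher (0.62, adjusted p = 2.26e-05), and DHCR7 (-0.51, adjusted p = 0.000454) and NSDHL (-0.63, adjusted p = 0.00445) were among those lower beside HMGCS1 and FDFT1. Of the fatty acid genes 5 were higher and 5 lower. ELOVL6 was higher (1.34, adjusted p = 3.51e-07), and ELOVL5 (-0.45, adjusted p = 0.000675) and FADS2, the delta-6 desaturase (-0.46, adjusted p = 0.00806), were lower. SCD5 separated the lines most widely, with 179 and 169 counts in HGC-27 NINJ1 against 0 and 0 in AGS, at least 51.0-fold lower with 3 counts assumed in each library at 0.

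In the uptake and control list 2 genes were higher and 3 lower in AGS. MBTPS1, the protease that first cuts SREBP, lay at -0.31 (adjusted p = 0.0204), and MBTPS2, which cuts it next, at 0.71 (adjusted p = 6.65e-06). The LXR list had 1 higher (SOAT1, 1.06, adjusted p = 8.05e-10) and 4 lower of 10, among them ABCA1 (-1.29, adjusted p = 6.48e-06), MYLIP (-1.40, adjusted p = 1.32e-06) and NR1H2, which encodes LXR beta (-0.86, adjusted p = 2.13e-06). In the oxidation list 4 were higher and 3 lower, with PDK4 at 2.33 (adjusted p = 1.58e-17), PLIN2, a lipid droplet coat protein, at -1.19 (adjusted p = 1.62e-10) and ANGPTL4 at -2.39 (adjusted p = 8.49e-16).

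Markers of other cells that make or store lipid were followed beside these genes. None of 6 hepatocyte markers reached 1 FPKM and TTR was at 0 throughout. Of 6 adipocyte markers ADIPOQ, CIDEC and FABP4 were at 0 in every library and LPL alone reached 1 FPKM, with 1136 to 1570 counts in AGS and 13 to 20 in HGC-27. Of 5 leukocyte markers CD3E and LYZ were at 0. The summed level of 6 fibroblast and endothelial markers, of which COL1A1 and PDGFRB reached 1 FPKM, was 99.1 CPM in the AGS control against 34.4 and 29.6 CPM in the AGS libraries labelled NINJ1, and 15.6 CPM in the HGC-27 control against 50.9 and 54.7 CPM; their part in the differences above was not tested.

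Each member's log2 CPM was standardised over the 6 libraries, that is, centred and divided by its SD. The branch mean here is the mean of these standardised profiles, not the mean log2 CPM used above. Among 9862 genes with a mean of at least 10 CPM, those most like a branch were ranked by Pearson's r with that mean. For the sterol branch these were EIF4G3 (0.997), MUC16 (0.995), CALR (0.994), RCN1 (0.994) and P4HA1 (0.993). For the fatty acid branch they were MAGED2 (0.994), VGLL4 (0.982), IRX5 (0.976), SLC4A11 (0.975) and ZFP36L2 (0.975). All values come from the same 6 libraries, of which the HGC-27 control is far from the rest, and they describe likeness alone. Against the mean of their own branch, which contains each of them and so raises r, the sterol members had 0.722 (INSIG1) to 0.952 (FDFT1). The fatty acid members had 0.188 (ACACA), 0.353 (FASN), 0.721 (SREBF1) and 0.791 (SCD). Pair by pair, r ran from 0.260 (HMGCS1 and INSIG1) to 0.918 (HMGCS1 and FDFT1) in the sterol branch. In the fatty acid branch it ran from -0.828 (FASN and ACACA) to 0.839 (FASN and SREBF1). ACACA had 0.461 (INSIG1) to 0.994 (FDFT1) with the sterol members.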

How the data were processed

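RNA from 6 libraries of HGC-27 and AGS was analysed. HISAT2, HTSeq 0.13.5 and the build GRCh38 are named per the submitters' processing notes; the aligner's version, annotation release and strand setting are not given in the sources used here. The deposited tables list 51103 genes per library with their raw counts and, per the file headers, their FPKM. The authors' FPKM equals the count divided by a fixed length per gene and by the total count. Symbols, coordinates and GC content (longest transcript) came from GENCODE release 29.

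Genes were kept by filterByExpr (minimum count 10), scaled by TMM and tested with edgeR 4.0.16 (R 4.3.3) by two-sided quasi-likelihood F tests over 4 groups of line and treatment, with adjusted p under 0.05 as threshold. SE is the log2 difference divided by the square root of F. The method was tested on simulated data. The GC correction used, per library, a smooth of the log2 CPM departure from the 6-library mean on GC content as an offset. The NINJ1 pairs differed by more than counting noise (chi-square per degree of freedom 4.01 in AGS and 11.2 in HGC-27). Alternatives were DESeq2 1.42.0, its size factors, no filter, limma 3.58.1 on log2(FPKM + 1) and log2(FPKM + 0.1) (FPKM at or above 1 in 2 or more libraries), lines as titled, the 4 undisputed libraries with line and treatment as additive terms, a replicate block and each library left out.

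The members and lists were chosen with earlier results of these data known. Named were the 8 members, NINJ1, and of each list up to 4 further genes with the smallest p in AGS and up to 4 between the lines, and the 5 genes most like each branch. Some list genes are counted but not reported by name here.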

Additional observations from a re-analysis of the deposited data

Results flagged for a closer look

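The log2 difference between libraries labelled NINJ1 and control was not the same in both lines for 7 of the 8 genes, by the interaction contrast (AGS minus HGC-27) in edgeR with Benjamini-Hochberg adjustment. Of all genes tested, 54.2% passed this contrast in either direction. The contrast was 0.93 for HMGCS1, 0.81 for SQLE, 0.57 for FDFT1 and 0.77 for ACACA. It was -2.68 for FASN, -0.57 for SCD and -2.64 for SREBF1. With GC correction SQLE (0.58), FDFT1 (0.47), ACACA (0.70) and SCD (-0.87) still passed, and HMGCS1 (0.20), FASN (0.36) and SREBF1 (-0.29) did not. Fewer of all genes passed with the correction too, as counted in the next section. With lines as titled, where each NINJ1 pair joins 1 library of either file name, none of the 7 passed. Groups of 1 or 2 libraries are too small for a test of single outlying libraries.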

How the results depend on the processing

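With lines as titled, genes called were 0 in AGS, 2149 in HGC-27, 0 between lines and 0 for the difference (edgeR, 595, 6040, 19 and 4459 at an unadjusted p under 0.05), and members called were 0, 2, 0 and 0. On the 4 undisputed libraries 1 gene passed for treatment (546 unadjusted) and 590 between lines, and 0 members in either. Reversed with lines as titled were, in AGS, HMGCS1 (0.79), FDFT1 (0.0024), SCD (0.27), ACACA (0.072) and SREBF1 (0.36), in HGC-27 SCD (-0.39), between lines INSIG1 (0.022), FASN (0.053), SCD (0.096) and SREBF1 (0.065), and in the difference SCD (0.66). Reversed on the undisputed libraries were FASN (0.70) and SREBF1 (1.10) against AGS, SCD (-0.24) against HGC-27, and between lines SQLE (-0.31), FASN (1.19) and SREBF1 (0.36). That fit has 1 treatment term for both lines, so its AGS and HGC-27 values are the same coefficient. DESeq2 called 1277 genes in AGS and 4671 between lines, against 2648 and 7084 in edgeR. On log2(FPKM + 1) and log2(FPKM + 0.1), 950 and 793 genes and 2 members each (INSIG1 and FASN) passed in AGS; HMGCS1 in AGS (0.014 and 0.015) and INSIG1 in HGC-27 (0.15 and 0.15) changed sign. The share of calls that were higher was 70.7% and 71.9% there in HGC-27 (53.9% in edgeR), 30.6% and 29.5% for the difference (44.2%), and 42.6% and 48.3% in AGS (38.1%). With GC correction 6154 genes were called for the difference (9547 without), and it reversed FASN in HGC-27 (-0.64), between lines (0.030) and in the difference (0.36). Sterol minus fatty acid genes became -0.094 in AGS, -0.27 in HGC-27 and 0.12 between lines with GC correction (0.06, -1.70 and 0.24 without), and -1.62 in HGC-27 on log2(FPKM + 1). Leaving out 1 library gave 935 to 4712 genes and 1 to 6 members in AGS, 10704 to 11321 and 6 to 7 in HGC-27, 4724 to 7815 and 4 to 6 between lines, and 8417 to 10372 and 6 to 8 for the difference; sterol minus fatty acid genes ran from 0.012 to 0.11, -1.71 to -1.69 and 0.19 to 0.29. ACACA and SREBF1 passed in AGS without HGC-27 NINJ1 replicate 1 (adjusted p = 0.0180 and 0.0393) or 2 (0.0171 and 0.0378), and SQLE between lines was -0.034 without the first. The replicate block gave 2575, 10487, 7283 and 9652 genes and changed no member's call; same-numbered deviations correlated at 0.0084 between lines, so the libraries are taken to share only a number. The lowest count of any of the 8 genes was 681.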

Other observations

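ACACA and FASN, consecutive enzymes of the fatty acid route, had opposite differences in HGC-27 before GC correction (-1.03 and 2.04) and the same sign after it (-0.98 and -0.64). MUC16, a membrane mucin and one of the genes most like the sterol branch, was at 762 CPM in the HGC-27 control and at 118 and 121 CPM in HGC-27 NINJ1, and at 160 CPM in the AGS control and at 38.5 and 39.8 CPM in the AGS libraries labelled NINJ1. MVD, the mevalonate decarboxylase, chosen after its values were seen, was at 5.10 CPM in the HGC-27 control and at 42.2 and 53.7 CPM in HGC-27 NINJ1, and its log2 difference went from 3.23 to 0.93 with GC correction (edgeR adjusted p = 4.67e-14 and 0.000282). CYP51A1, the sterol demethylase, also chosen after its values were seen, had 0, 32 and 52 counts in the HGC-27 libraries and 12, 28 and 19 in those of AGS, too few to describe a fold.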
